A study of Homo sapiens with 22 samples.

Results

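The 30 genes described here encode the enzymes and regulators of cholesterol and fatty acid synthesis. They were taken by gene symbol from 4 tables of gene-level RNA sequencing, all 30 were present in every table, and all 30 passed the filter on low values in every comparison; 13704 symbols were shared by the tables. They fall into 18 enzymes of the sterol branch, 8 enzymes of the fatty acid branch, and 4 regulators and transport genes (INSIG1, SREBF1, SREBF2 and STARD4). The cells were HN-6, a line from human head and neck squamous cell carcinoma, and all 22 libraries came from cultures given human interferon-β at 1000 U/ml for 24 h, controls included. SMYD3, a lysine methyltransferase, was removed or depleted in 3 ways: in a SMYD3 knockout line named 5-3 against parental HN-6 cells (3 libraries each), with 1 SMYD3 siRNA against a control siRNA (3 each), and with ASO 081, an antisense oligonucleotide, where the controls received phosphate-buffered saline or PBS (2 each). An siRNA to UHRF1, which helps copy DNA methylation onto new strands, had control siRNA libraries of its own (3 each). The siRNAs and the ASO were given for 72 h. Each comparison has its own control libraries, the knockout is 1 line, and the ASO was set against PBS and not against a control oligonucleotide.

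Cholesterol is built from acetyl-CoA through mevalonate and squalene to lanosterol, which is then trimmed and reduced to cholesterol. Fatty acids are built from the same acetyl-CoA by carboxylation and repeated condensation, and are then elongated and desaturated. Both branches are classically under the SREBP transcription factors: the product of SREBF2 acts mainly on sterol genes and that of SREBF1 mainly on fatty acid genes, and INSIG1 holds the SREBP precursors in the endoplasmic reticulum when sterols are plentiful. Many SREBP-responsive promoters combine a sterol response element with a CCAAT box, the site of the NF-Y factor, and a GC box, the site of SP1-type factors.

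The promoter stretches of 6 members follow, because results below turn on 5 of them and the sixth is the single member whose window held the sterol response element core. They are RefSeq sequences on GRCh38.p14, read 5′ to 3′ on the gene's strand, and each ends 1 base before the first annotated base of the gene in GENCODE release 29. Capitals mark CCAAT boxes (CCAAT, or ATTGG where the box lies on the other strand) and the sterol response element core TCACNCCAC. MSMO1 is at chr4:165327419-165327666, plus strand, HMGCS1 at chr5:43313513-43313662, minus strand, TM7SF2 at chr11:65111622-65111844, plus strand, INSIG1 at chr7:155297628-155297775, plus strand, SCD at chr10:100346983-100347232, plus strand and SREBF2 at chr22:41832855-41833078, plus strand.
MSMO1: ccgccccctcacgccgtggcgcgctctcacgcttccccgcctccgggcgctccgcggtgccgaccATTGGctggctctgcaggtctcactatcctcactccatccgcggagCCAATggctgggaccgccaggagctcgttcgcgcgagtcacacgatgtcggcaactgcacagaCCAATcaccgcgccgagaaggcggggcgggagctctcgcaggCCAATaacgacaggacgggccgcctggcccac
HMGCS1: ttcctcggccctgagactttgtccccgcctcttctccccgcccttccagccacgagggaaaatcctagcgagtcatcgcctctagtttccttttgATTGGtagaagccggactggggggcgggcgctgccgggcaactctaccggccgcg
TM7SF2: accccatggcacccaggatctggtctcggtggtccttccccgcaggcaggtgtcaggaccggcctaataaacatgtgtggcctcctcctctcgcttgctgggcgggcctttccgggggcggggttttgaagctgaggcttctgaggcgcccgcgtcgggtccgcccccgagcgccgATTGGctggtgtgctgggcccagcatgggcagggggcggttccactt
INSIG1: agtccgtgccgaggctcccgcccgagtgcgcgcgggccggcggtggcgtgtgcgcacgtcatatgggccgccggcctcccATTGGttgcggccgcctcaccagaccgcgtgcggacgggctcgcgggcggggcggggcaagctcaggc
SCD: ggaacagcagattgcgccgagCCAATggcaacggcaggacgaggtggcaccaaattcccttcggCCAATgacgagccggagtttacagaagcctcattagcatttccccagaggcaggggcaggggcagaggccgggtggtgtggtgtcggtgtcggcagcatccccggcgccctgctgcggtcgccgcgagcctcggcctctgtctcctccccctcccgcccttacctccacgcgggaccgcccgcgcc
SREBF2: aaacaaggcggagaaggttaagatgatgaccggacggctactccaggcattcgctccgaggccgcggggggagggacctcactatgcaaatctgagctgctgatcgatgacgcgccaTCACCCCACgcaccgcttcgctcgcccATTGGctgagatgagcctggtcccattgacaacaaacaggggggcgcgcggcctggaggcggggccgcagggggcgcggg

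The MSMO1 stretch held 4 CCAAT boxes, the SCD stretch 2, and the other 4 stretches 1 each. RefSeq promoter windows of 300 bases (250 before and 50 after the start) were at hand for 26 of the 30 members, which have 36 windows; SQLE, FDFT1, ACAT2 and FASN have none there. Searched on both strands, CCAAT was in 15 of 20 sterol windows (75%), in 7 of 12 fatty acid windows (58.3%) and in 34.6% of all 35116 windows. GGGCGG, the GC box core, was in 18 of 20 sterol windows (90%), in 10 of 12 fatty acid windows (83.3%) and in 45.0% of all windows. The sterol response element core was in 1.13% of all windows and in 1 of the 36 member windows. Windows of 1 gene overlap in some cases, and a match describes the letters and not a binding site.

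Libraries held 24783605 to 62921144 reads in genes. SMYD3 fell by 1.79 ± 0.13 in the knockout line, fell by 2.41 ± 0.12 with its siRNA and fell by 2.52 ± 0.12 with the ASO (log2 fold change ± SE, used for every change below), with no overlap between groups. UHRF1 fell by 4.85 ± 0.085 with its own siRNA. UHRF1 also fell by 1.68 ± 0.14 with the SMYD3 siRNA, whereas it rose by 0.36 ± 0.060 with the ASO and by 0.44 ± 0.034 in the knockout line, and SMYD3 fell by 0.57 ± 0.092 with the UHRF1 siRNA. Of 9 squamous epithelial markers 7 to 9 were at 1 CPM (reads scaled to library size) or more in every library of each group, and in the count tables the 5 leukocyte markers summed to 1.72 to 4.37 CPM, with the T cell gene CD3E at 0 in the ASO and UHRF1 libraries. The squamous markers moved with the groups too: 7 were called higher and 1 lower in the knockout line (KRT6A 5.42 ± 0.11), 4 and 3 with the SMYD3 siRNA (CDH1 1.28 ± 0.091), 5 and 0 with the ASO (KRT6A 1.36 ± 0.15), and 4 and 3 with the UHRF1 siRNA (KRT17 3.55 ± 0.059, EPCAM -0.82 ± 0.049). Mitochondrial genes took 14.9% to 15.7% of the reads in parental libraries and 4.82% to 4.88% in knockout libraries. The knockout counts below were the same with mitochondrial genes left out. That fit kept the authors' scaling, so the members' changes could not move, and the part of the mitochondrial share was not tested. Summed fibroblast and endothelial markers were 105 to 108 CPM in the UHRF1 control libraries and 479 to 550 in the UHRF1 siRNA libraries, mostly COL1A1, which rose by 2.62 ± 0.055; VWF rose by 1.77 ± 0.15 and PDGFRB fell by 1.19 ± 0.082 there. For the knockout COL1A1 fell by 1.75 ± 0.061 and PDGFRB fell by 0.49 ± 0.14. Of the leukocyte markers 2 were listed for the knockout. CD68, a macrophage lysosomal protein, lay between 42.7 and 44.5 CPM in parental and between 288 and 306 CPM in knockout libraries and rose by 2.98 ± 0.038. The other, LYZ, fell by 2.11 ± 0.39. CD68 was at 0.595 to 0.971 CPM in the controls of the SMYD3 siRNA and the ASO. The part of these markers in the results was not tested. In bulk RNA, fewer cells of a type and less RNA per cell cannot be told apart.

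Levels are given as CPM on the effective library size (TMM scaling) in the siRNA and ASO tables, and as the authors' normalized counts in the knockout table. The tables were deposited separately, so levels are compared within a table. Controls of all 4 tables shared a coarse order of the members per gene length. SCD, the desaturase that makes oleic acid, was first in each, at 124 to 301 RPKM (reads scaled to gene length and library size), and DHCR7, the last enzyme of cholesterol synthesis, was next at 55.6 to 296. In the UHRF1 controls SCD (301 ± 4.73, SD, n = 3) and DHCR7 (296 ± 8.67) did not differ beyond their spread. FADS2, HSD17B7 and SC5D were among the low members in each table, at 1.58 to 7.93 RPKM.

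With the UHRF1 siRNA more sterol enzymes rose than fell, and more fatty acid enzymes fell than rose. Of the 18 sterol enzymes 9 rose and 4 fell, of the 4 regulators 3 rose and 1 fell, and of the 8 fatty acid enzymes 1 rose and 5 fell. The median log2 fold change was 0.24 for the sterol branch and -0.49 for the fatty acid branch, beside -0.013 for all 18349 genes tested. TM7SF2, HMGCS1, INSIG1 and MSMO1 rose by 1.03 to 1.43, and FADS1, a fatty acid desaturase, fell by 1.55 ± 0.050. Of all genes 32% were called higher and 32.7% lower, 64.7% in all, beside 23 of 30 members. Without 1 control or siRNA library the FDPS call ended (adjusted p = 0.108 without control replicate 1, 0.0598 without siRNA replicate 2 and 0.0673 without siRNA replicate 3). SC5D was called higher without control replicate 3 or siRNA replicate 1 (adjusted p = 0.00252 and 5.06e-08), CYP51A1 without control replicate 2 or siRNA replicate 1 (0.00198 and 0.0495), and LSS without control replicate 1 or siRNA replicate 2 (0.0339 and 0.0257); HSD17B7 was called lower without siRNA replicate 2 (0.0316).

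The fatty acid branch was also mostly lower in the knockout line, with 2 genes higher and 6 lower, and 3 of the 4 regulators fell. The sterol branch was divided, with 8 higher and 7 lower. Its median log2 fold change was 0.037, that of the fatty acid branch -0.48, and that of all 16948 genes tested -0.020. The deepest falls were of TM7SF2, SCD, SREBF1, INSIG1 and STARD4, between 1.27 and 2.97. The background is high, with 42.1% of all genes called higher and 42.5% lower (84.6%), beside 27 of 30 members. Each SE and adjusted p for the knockout measures spread between libraries of 1 knockout line, not between knockout lines. Loss of SMYD3 and other differences of that line cannot be told apart here. With upper quartile factors on the recovered reads the median of all genes was -0.31, that of the sterol branch -0.24 and that of the fatty acid branch -0.76, and the members went from 11 higher and 16 lower to 5 and 19 (sterol branch 3 and 10, fatty acid branch 2 and 6). All genes shifted as well: of 17036 in that fit, 5386 were called higher and 9117 lower. The 5 members higher under either scaling were HMGCS1, SQLE, CYP51A1, ACLY and ELOVL6. The MVD call ended without parental replicate 1 or 3 or knockout replicate 1 or 2 (adjusted p = 0.151, 0.0984, 0.0635 and 0.128). IDI1 was called lower without parental replicate 1 or knockout replicate 2 (0.0418 and 0.0236), and PMVK higher without parental replicate 3 or knockout replicate 2 (0.0156 and 0.0311). With edgeR on the recovered reads IDI1 was called lower under TMM factors (adjusted p = 0.0204) and upper quartile factors (-0.38). Under TMM factors the sterol branch was 8 higher and 9 lower, beside 7010 and 7470 of 17036 genes. With the replicate number as a block, limma called IDI1 lower and PMVK higher (adjusted p = 0.0333 and 0.0239).

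With the SMYD3 siRNA 10 members rose and 6 fell, with both directions in each enzyme branch: 5 sterol enzymes rose and 4 fell, 3 fatty acid enzymes rose and 2 fell, and 2 regulators rose. The medians were 0.13 for the sterol and 0.011 for the fatty acid branch, beside -0.016 for all 18966 genes tested. The sign of the fatty acid median was not stable: it was -0.026 with upper quartile factors, -0.0016 with no filter, -0.0018 without control replicate 3, -0.015 without siRNA replicate 2 and 0.081 without siRNA replicate 1. MSMO1 fell furthest, by 1.43 ± 0.074, and FASN, LSS, SREBF1 and SCD rose by 0.57 to 0.73. Of all genes 24.2% were called higher and 24.4% lower (48.6%), beside 16 of 30 members. With upper quartile factors 8 members rose and 7 fell, and the sterol branch became 4 and 5, beside 4171 and 5105 of the 18966 genes. The calls of 5 members ended without 1 library: MVK (adjusted p = 0.0695 and 0.165 without control replicates 1 and 3, 0.128 and 0.138 without siRNA replicates 2 and 3), PMVK (0.0746 without siRNA replicate 3), ACAT2 (0.0506 without control replicate 2), STARD4 (0.108 and 0.101 without control replicates 2 and 3) and FADS2 (0.133 and 0.0858 without control replicates 1 and 2, 0.195 and 0.0713 without siRNA replicates 1 and 3). Without siRNA replicate 1, DHCR7, IDI1 and MVD were called higher (0.00409, 0.0458 and 0.00832), as was CYP51A1 without control replicate 1 (0.0194).

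Changes with the ASO were small, with log2 fold changes between -0.37 and 0.33. Of the fatty acid enzymes 4 fell and 0 rose, of the sterol enzymes 2 rose and 3 fell, and of the regulators 2 rose and 1 fell. The medians were -0.036 for the sterol and -0.18 for the fatty acid branch, beside -0.0043 for all genes. Of the 18233 genes tested 11.3% were called higher and 10.3% lower (21.7%), beside 12 of 30 members. With upper quartile factors 1 sterol enzyme was called higher, since the IDI1 call ended (adjusted p = 0.0631), and DESeq2 did not call EBP or IDI1 (adjusted p = 0.0971 and 0.0906). With 2 libraries a group, 7 of the 12 calls ended without 1 library: FDFT1 (adjusted p = 0.0582 and 0.207 without PBS replicates 1 and 2, 0.0604 without ASO replicate 2), EBP (0.170 without PBS replicate 1), IDI1 (0.255 without PBS replicate 2, 0.154 without ASO replicate 1), MVD (0.0590 without PBS replicate 1, 0.117 without ASO replicate 2), SREBF1 (0.245 without PBS replicate 1), SCD (0.0508 without PBS replicate 2) and FADS1 (0.304 without PBS replicate 2, 0.0554 without ASO replicate 1). Without ASO replicate 1, TM7SF2 and PMVK were called lower (0.00646 and 0.0128) and ELOVL6 higher (0.0293), and ACLY was called lower without ASO replicate 2 (0.0354).

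**Figure D1:**
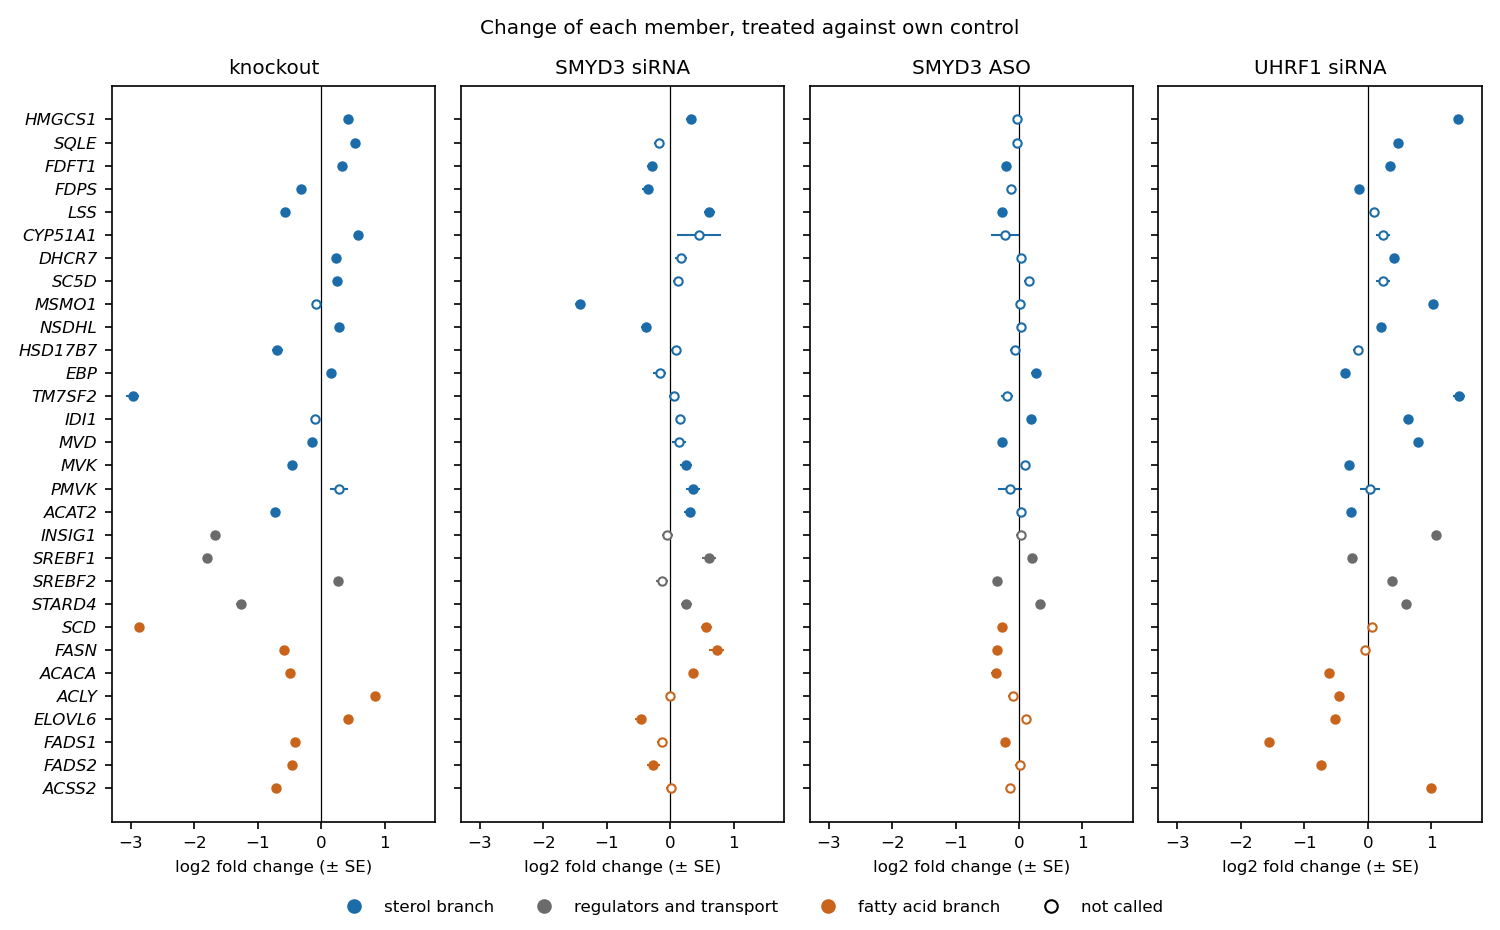
Log2 fold change (x axis, bars are SE) of each of the 30 members (y axis) in the knockout, SMYD3 siRNA, ASO and UHRF1 siRNA comparisons. Filled points passed adjusted p under 0.05; the UHRF1 siRNA panel has 9 sterol enzymes called right of 0 and 4 left of it, and 1 fatty acid enzyme right and 5 left, and the ASO points stay between -0.37 and 0.33.

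**Figure D2:**
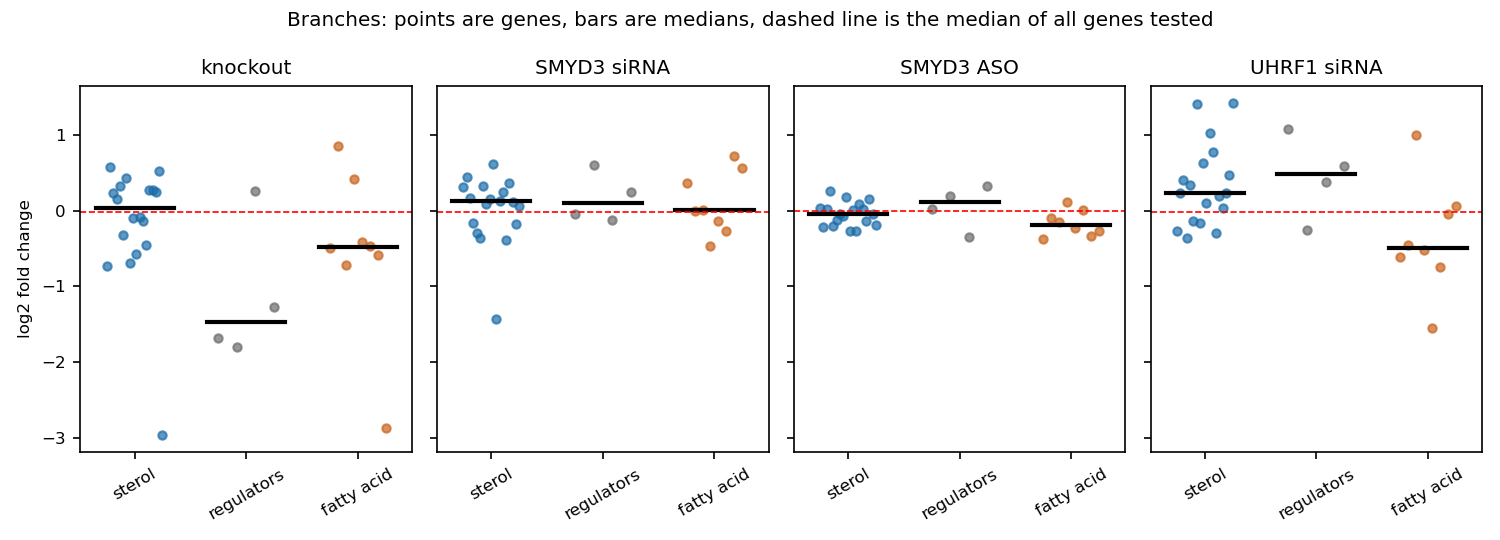
Log2 fold change (y axis) of the members by branch (x axis) in each comparison; points are genes, black bars the branch medians and the red dashed line the median of all genes tested. With the UHRF1 siRNA the sterol median is 0.24 and the fatty acid median -0.49; with the SMYD3 siRNA they are 0.13 and 0.011.

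The first steps of the sterol branch, from acetyl-CoA to farnesyl diphosphate, include HMGCS1, which makes the HMG-CoA from which mevalonate is formed. Its level was 300.2, 302 and 291 CPM in the UHRF1 control libraries against 806, 781 and 795 with the UHRF1 siRNA, a rise of 1.41 ± 0.049 (adjusted p = 2.38e-31). With the SMYD3 siRNA it was 86.0, 79.1 and 82.7 CPM in controls against 102, 105 and 104 in treated libraries and rose by 0.33 ± 0.070. In both siRNA comparisons every treated library was above every control. For the knockout HMGCS1 read 3469.6, 3690.0 and 3569 in parental against 4736, 4965 and 4744 in knockout libraries and rose by 0.43 ± 0.039 (0.15 with upper quartile factors). With the ASO HMGCS1 was 199 and 197 CPM with PBS against 195 and 192 with the ASO, a difference of -0.035 ± 0.054 that did not pass the test (adjusted p = 0.693). The SMYD3 siRNA change minus the UHRF1 siRNA change was -1.07 ± 0.085 (adjusted p = 1.37e-10).

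IDI1, the isomerase that makes the second isoprene unit, and MVD, the decarboxylase before it, also rose with the UHRF1 siRNA. IDI1 went from 91.7, 87.2 and 89.0 to 130.0, 144 and 144 CPM and rose by 0.64 ± 0.051, and MVD went from 72.6, 75.0 and 65.5 to 128, 122 and 118 CPM and rose by 0.79 ± 0.053. No treated library overlapped the controls for either gene. MVD fell by 0.27 ± 0.070 with the ASO and by 0.14 ± 0.057 in the knockout line, where the groups overlapped. IDI1 rose by 0.19 ± 0.061 with the ASO. MVK and PMVK, the kinases that phosphorylate mevalonate in succession, and ACAT2, the cytosolic thiolase that supplies acetoacetyl-CoA, stand earlier in the path. MVK fell by 0.30 ± 0.061 and ACAT2 by 0.27 ± 0.052 with the UHRF1 siRNA, and PMVK was not called (0.040 ± 0.16). With the SMYD3 siRNA MVK, PMVK and ACAT2 rose by 0.25 ± 0.094, 0.36 ± 0.11 and 0.31 ± 0.085, the MVK groups overlapping. ACAT2 was 3105, 3039.7 and 2942 in parental against 1911, 1764 and 1815 in knockout libraries and fell by 0.73 ± 0.044, and MVK fell by 0.46 ± 0.053. Exons of ACAT2 overlap those of genes on the other strand, SOD2 among them (26.5% of its exon bases), and the counting of strand is not given in the sources used here. FDPS, which makes farnesyl diphosphate, fell in the knockout line by 0.31 ± 0.043, with the SMYD3 siRNA by 0.35 ± 0.088 and with the UHRF1 siRNA by 0.13 ± 0.050; with the ASO its change of -0.12 ± 0.055 did not pass (adjusted p = 0.126).

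FDFT1, SQLE and LSS carry farnesyl diphosphate through squalene to lanosterol, the first sterol ring system. FDFT1, squalene synthase, rose with the UHRF1 siRNA (0.35 ± 0.049) and in the knockout line (0.33 ± 0.038, but 0.046 and not called with upper quartile factors, adjusted p = 0.278), and fell with the SMYD3 siRNA (-0.29 ± 0.076) and the ASO (-0.20 ± 0.055). Its CPM was 131, 123 and 125 in UHRF1 controls against 156, 164 and 162 with that siRNA, and 107, 109 and 103 in SMYD3 siRNA controls against 80.3, 93.5 and 87.0 with that siRNA. The groups did not overlap in either comparison, and the change with the SMYD3 siRNA minus that with the UHRF1 siRNA was -0.62 ± 0.088 (adjusted p = 1.64e-06). SQLE, squalene epoxidase, rose by 0.47 ± 0.048 with the UHRF1 siRNA and by 0.53 ± 0.047 in the knockout line (0.25 with upper quartile factors).

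LSS, the cyclase that closes lanosterol, was called in opposite directions by the SMYD3 depletions. With the SMYD3 siRNA it was 50.5, 49.2 and 47.3 CPM in controls against 63.4, 82.8 and 79.6 CPM in treated libraries and rose by 0.62 ± 0.094. With the ASO it was 77.5 and 81.2 CPM with PBS against 65.9 and 65.8 CPM with the ASO and fell by 0.27 ± 0.056, and in the knockout line it fell by 0.57 ± 0.048. The groups did not overlap in any of these. The change with the SMYD3 siRNA exceeded that with the ASO by 0.87 ± 0.13 (adjusted p = 7.07e-05).

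Among the enzymes that turn lanosterol into cholesterol, MSMO1 and TM7SF2 moved furthest. MSMO1, the sterol C4-methyl oxidase whose promoter is printed above, was 65.8, 63.4 and 64.2 CPM in SMYD3 siRNA controls against 25.2, 23.6 and 23.2 CPM in treated libraries, a fall to 0.372 of the control level (adjusted p = 5.32e-09). Under the UHRF1 siRNA it was 176, 210.1 and 203 CPM in controls against 375, 412 and 416 CPM in treated libraries and rose by 1.03 ± 0.055. Neither comparison had any overlap between groups, and the SMYD3 siRNA change minus the UHRF1 siRNA change was -2.44 ± 0.10 (adjusted p = 2.08e-15), the largest of the 30 members in that pair. With the ASO MSMO1 was 101 and 101 CPM with PBS against 103 and 101 CPM with the ASO, a change of 0.0090 ± 0.054 (adjusted p = 0.928). For the knockout MSMO1 was 1798, 1855 and 1794 in parental against 1711, 1716 and 1701 in knockout libraries, a change of -0.087 ± 0.042 that did not pass (adjusted p = 0.0674) but became -0.37 and called with upper quartile factors, and was also called by edgeR with TMM factors (adjusted p = 0.0224).

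TM7SF2, a sterol C14 reductase, was 5.46, 6.12 and 5.39 CPM in UHRF1 controls against 16.1, 13.8 and 16.0 CPM with the siRNA, a rise of 1.43 ± 0.095 (adjusted p = 3.33e-19) from a low level. In the knockout table it read 696, 601 and 675 in parental against 79.3, 77.4 and 92.8 in knockout libraries, a fall of 2.97 ± 0.10 (adjusted p = 5.56e-13). It did not pass the test with the SMYD3 siRNA (0.062 ± 0.082) or the ASO (-0.19 ± 0.093). LBR, which has the same reductase activity and also binds the nuclear lamina, fell by 0.69 ± 0.051 with the UHRF1 siRNA.

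The remaining late enzymes moved less. NSDHL, which removes the C4 carboxyl group, fell by 0.39 ± 0.077 with the SMYD3 siRNA and rose by 0.20 ± 0.056 with the UHRF1 siRNA. HSD17B7, the 3-ketosteroid reductase of the same step, fell by 0.69 ± 0.083 in the knockout line and was not called elsewhere. EBP, the sterol isomerase, rose by 0.27 ± 0.073 with the ASO and fell by 0.37 ± 0.061 with the UHRF1 siRNA. DHCR7 rose by 0.41 ± 0.049 with the UHRF1 siRNA, from 1213, 1236 and 1155 to 1638, 1566 and 1586 CPM. Of the genes called higher in the knockout line, DHCR7, SC5D (the C5 desaturase), NSDHL and EBP were up by 0.16 to 0.28 and turned to -0.044, -0.020, -0.0014 and -0.12 with upper quartile factors, under which EBP was called lower (adjusted p = 0.0267). CYP51A1, the lanosterol demethylase, is uncertain: 79.3% of its exon bases are shared with another annotated protein-coding gene on the same strand, and it held 0.411 to 8.53 CPM in the siRNA and ASO tables. It read 1131, 1245 and 1174 in parental against 1803, 1766 and 1751 in knockout libraries in the knockout table, where it rose by 0.58 ± 0.049.

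**Figure D3:**
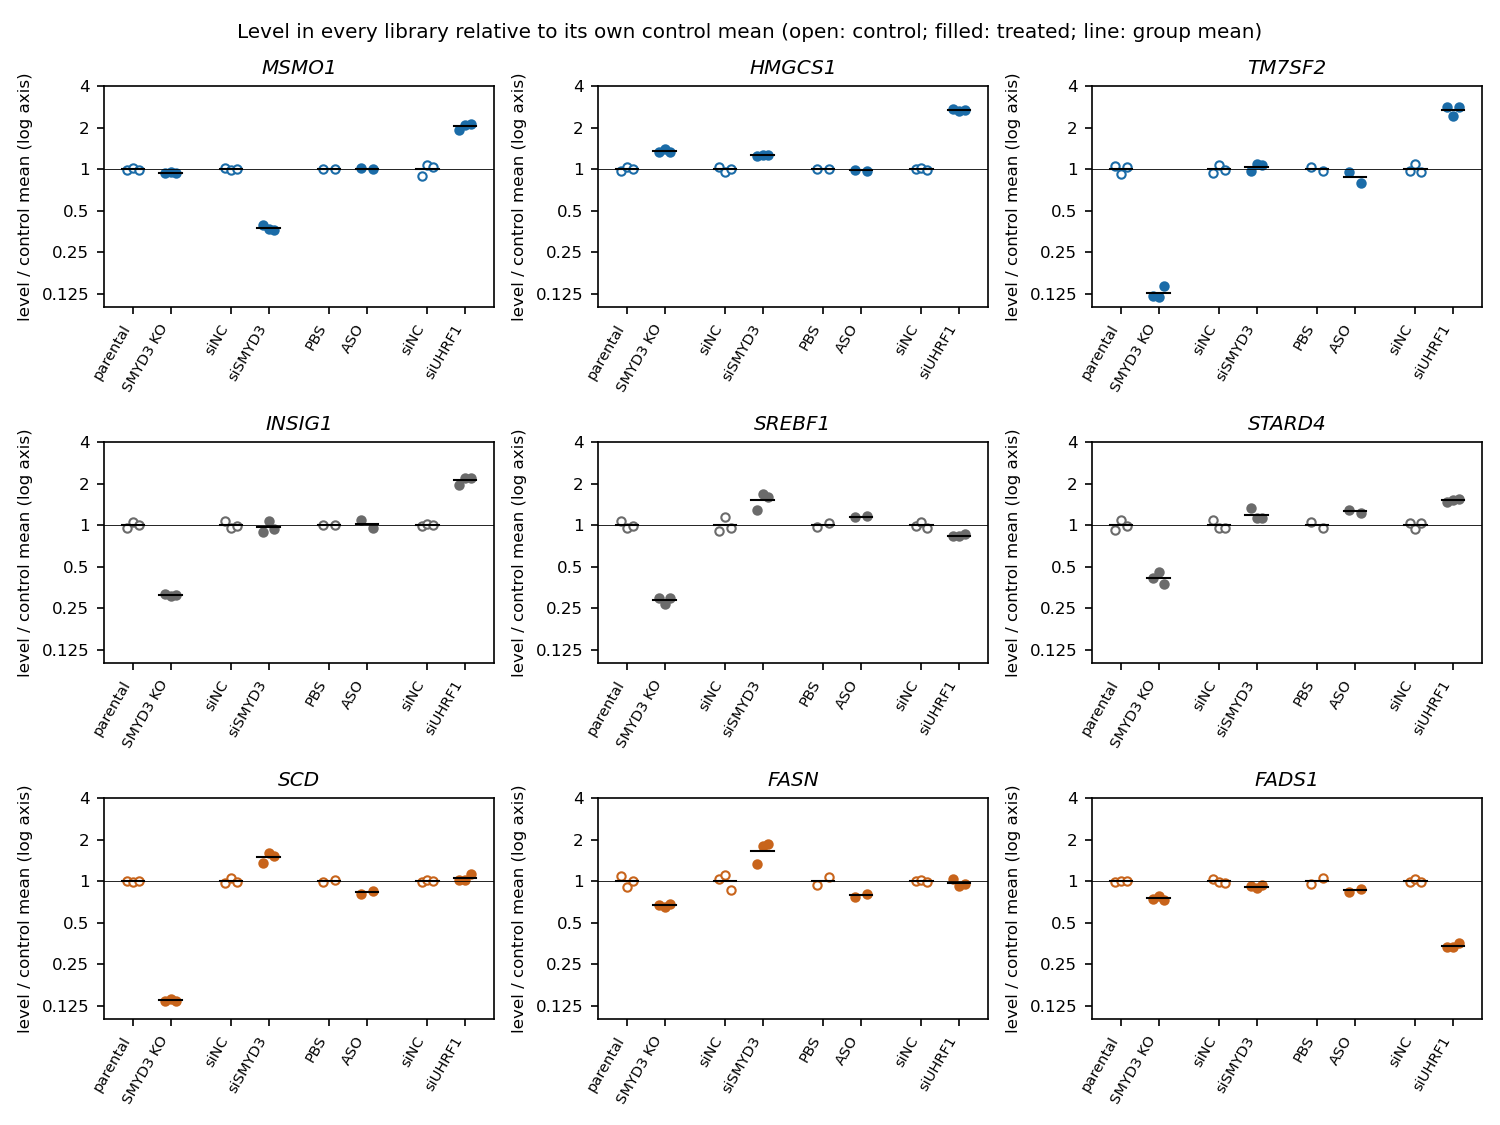
Level of 9 members in every library, divided by the mean of its own control group (y axis, log scale, 1 is the control mean), by group (x axis). Open points are control and filled points treated libraries, and lines are group means; MSMO1 falls with the SMYD3 siRNA and rises with the UHRF1 siRNA, and TM7SF2 and SCD are at 0.128 and 0.137 of the parental level in the knockout line.

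INSIG1, the sterol-regulated brake on SREBP processing and itself a classical SREBP target, was 312, 326 and 318 CPM in UHRF1 controls against 625, 695 and 697 CPM with the siRNA and rose by 1.08 ± 0.050. INSIG1 read 3304, 3663 and 3497 in parental against 1112, 1060.2 and 1091 in knockout libraries and fell by 1.68 ± 0.048. Neither comparison had overlapping groups, whereas with the SMYD3 siRNA (-0.047 ± 0.085) and the ASO (0.028 ± 0.068) the groups overlapped and the gene was not called. SREBF1, which encodes SREBP-1, was 255, 320.2 and 266 CPM in SMYD3 siRNA controls against 359, 469 and 452 CPM with the siRNA and rose by 0.61 ± 0.11. It fell by 1.81 ± 0.051 in the knockout line, from 5999.9, 5381 and 5581 to 1667, 1504 and 1673. It fell by 0.25 ± 0.049 with the UHRF1 siRNA, from 508, 537 and 491 to 426, 426 and 438 CPM, and rose by 0.20 ± 0.058 with the ASO. The knockout change minus the SMYD3 siRNA change was -2.53 ± 0.13 (adjusted p = 7.82e-12).

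SREBF2, which encodes SREBP-2, rose by 0.38 ± 0.048 with the UHRF1 siRNA, from 284, 299.9 and 285 to 387, 364 and 378 CPM. It fell by 0.35 ± 0.057 with the ASO, from 258 and 273 to 206 and 212 CPM, and its change of -0.13 ± 0.091 with the SMYD3 siRNA was not called. SREBF2 was called higher in the knockout line by 0.26 ± 0.046, which turned to -0.016 with upper quartile factors. So SREBF1 was called lower and SREBF2 higher with the UHRF1 siRNA, and the reverse held with the ASO. STARD4, a carrier of cholesterol between membranes, rose by 0.60 ± 0.051 with the UHRF1 siRNA, 0.33 ± 0.062 with the ASO and 0.25 ± 0.087 with the SMYD3 siRNA, where upper quartile factors ended the call (adjusted p = 0.0506). It fell by 1.27 ± 0.076 in the knockout line, from 1477, 1743 and 1569 to 656, 734 and 600.0.

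In the fatty acid branch, ACLY and ACSS2 make cytosolic acetyl-CoA from citrate and from acetate. With the UHRF1 siRNA they moved in opposite directions: ACLY went from 221, 224 and 215 to 168, 154 and 159 CPM and fell by 0.46 ± 0.049, and ACSS2 went from 48.5, 46.6 and 42.2 to 94.0, 85.9 and 94.8 CPM and rose by 1.00 ± 0.055. In knockout libraries the directions were the other way round. ACLY read 5112, 5232 and 5022 in parental against 9112, 9417 and 9239.6 in knockout libraries and rose by 0.85 ± 0.034, and ACSS2 read 1832, 1780.3 and 1807 in parental against 1099, 1079 and 1117 in knockout libraries and fell by 0.72 ± 0.045. Neither gene was called with the SMYD3 siRNA (ACLY 0.0036 ± 0.074, ACSS2 0.018 ± 0.078) or the ASO (ACLY -0.095 ± 0.070, ACSS2 -0.14 ± 0.057).

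ACACA and FASN, which commit acetyl-CoA to malonyl-CoA and then build palmitate, were opposite between the SMYD3 siRNA and the ASO. FASN was 334, 351 and 275 CPM in controls against 427, 577 and 591 CPM with the SMYD3 siRNA and rose by 0.73 ± 0.12. With the ASO it was 376 and 429 CPM with PBS against 310.5 and 326 CPM with the ASO and fell by 0.34 ± 0.068. The difference between these changes was 1.05 ± 0.18 (adjusted p = 0.000266). ACACA was 105, 114 and 107 CPM in controls against 135, 141 and 144 CPM with the SMYD3 siRNA and rose by 0.37 ± 0.072, where with the ASO it fell by 0.37 ± 0.068, from 205 and 221 to 155 and 176 CPM. No group overlapped its control in these 4 contrasts. FASN fell by 0.58 ± 0.055 and ACACA by 0.49 ± 0.048 in the knockout line. After UHRF1 siRNA ACACA fell by 0.62 ± 0.048 and FASN was not called (-0.041 ± 0.050, adjusted p = 0.487).

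SCD had the largest fall of the branch. In the knockout table it read 23413, 22948 and 23387 in parental against 3138, 3249 and 3155 in knockout libraries, a fall of 2.87 ± 0.032 (adjusted p = 1.35e-17). With the SMYD3 siRNA it was 599, 659 and 612 CPM in controls against 839, 994 and 946 CPM in treated libraries and rose by 0.57 ± 0.091; with the ASO it was 998 and 1027 CPM with PBS against 819 and 861 CPM with the ASO and fell by 0.27 ± 0.059. The treated libraries lay wholly on 1 side of the controls each time. With the UHRF1 siRNA SCD was 1511, 1569 and 1545 CPM in controls against 1567, 1572 and 1721 CPM in treated libraries, and the groups overlapped (0.071 ± 0.050, adjusted p = 0.212).

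FADS1 and FADS2, the delta-5 and delta-6 desaturases of polyunsaturated fatty acids, lie on opposite strands of chromosome 11 with overlapping spans (FADS1 at 61799625 to 61829318 and FADS2 at 61792980 to 61867354, hg38, as the deposited coordinates give them). FADS1 was 263, 275 and 265 CPM in UHRF1 controls against 89.1, 88.7 and 95.4 CPM with the siRNA, a fall of 1.55 ± 0.050 (adjusted p = 9.84e-33). FADS2 was 78.3, 88.8 and 78.1 CPM in controls against 50.7, 46.0 and 49.9 CPM with the siRNA and fell by 0.74 ± 0.056. Both also fell in the knockout line, by 0.42 ± 0.039 and 0.46 ± 0.054. With the SMYD3 siRNA FADS2 fell by 0.27 ± 0.10 (not called by DESeq2, adjusted p = 0.0828) and FADS1 differed by -0.13 ± 0.070 without passing the test. With the ASO FADS1 fell by 0.22 ± 0.064. ELOVL6, which extends palmitate to stearate, fell with the UHRF1 siRNA (-0.52 ± 0.051) and the SMYD3 siRNA (-0.46 ± 0.093) and rose in the knockout line (0.42 ± 0.045).

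In the fits without a replicate block, 0 members were called in the same direction by all 3 ways of depleting SMYD3 (limma for the knockout, edgeR for the siRNA and the ASO; 0 higher and 0 lower). DESeq2 for the siRNA and the ASO with edgeR on the knockout's recovered reads also gave 0, and at an unadjusted p under 0.05 the count was 0 higher and 1 lower (FDPS, named after its values were seen). The same count over all genes was not made, so these counts have no background beside them. The ASO, with 2 libraries a group, called 21.7% of all genes in either direction, which limits how many genes all 3 ways can share. Of 14 members called both in the knockout line and with the SMYD3 siRNA, 3 had the same direction and 11 (78.6%) opposite directions, beside 38.3% opposite of all 6488 genes called in both. Of 7 called with both the SMYD3 siRNA and the ASO, 3 had the same and 4 (LSS, SCD, FASN and ACACA) opposite directions (57.1%, beside 52.8% of 2273 genes). Of 11 called in the knockout line and with the ASO, 7 had the same and 4 opposite directions (36.4%, beside 31.0% of 3079 genes). These shares were not tested against each other. The difference between the changes was itself tested for 4 pairs of comparisons, each fitted jointly on the genes common to both tables, so that it need not equal the subtraction of the separate values. It passed for 9 of 30 members between the SMYD3 siRNA and the ASO, where 40.1% of all genes passed, and for 23 between the knockout and the SMYD3 siRNA (76% of all genes) and 24 between the knockout and the ASO (76.5%). The knockout is a line and the siRNA a 72 h depletion, and the effect of that difference was not tested.

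Between the SMYD3 siRNA and the UHRF1 siRNA the changes of 23 of 30 members differed, against 54.1% of all genes. By branch, 8 of 18 sterol enzymes changed lower and 4 higher with the SMYD3 siRNA than with the UHRF1 siRNA (10 and 3 with upper quartile factors), and 6 of 8 fatty acid enzymes higher and 1 lower, where 4843 of all 17059 genes were higher and 4380 lower. With upper quartile factors 4407 of all genes were higher and 4883 lower. Of 12 members called in both, 7 (58.3%) had opposite directions, beside 35.3% of all 6171 genes called in both, and each of these differences passed the test: FDFT1, MSMO1, NSDHL, MVK, ACAT2, SREBF1 and ACACA. They were picked for opposite calls in the same libraries, so a pass was nearly given and adds no support. FADS1 was not among them, but its change differed by 1.43 ± 0.083 (adjusted p = 5.93e-13).

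**Figure D4:**
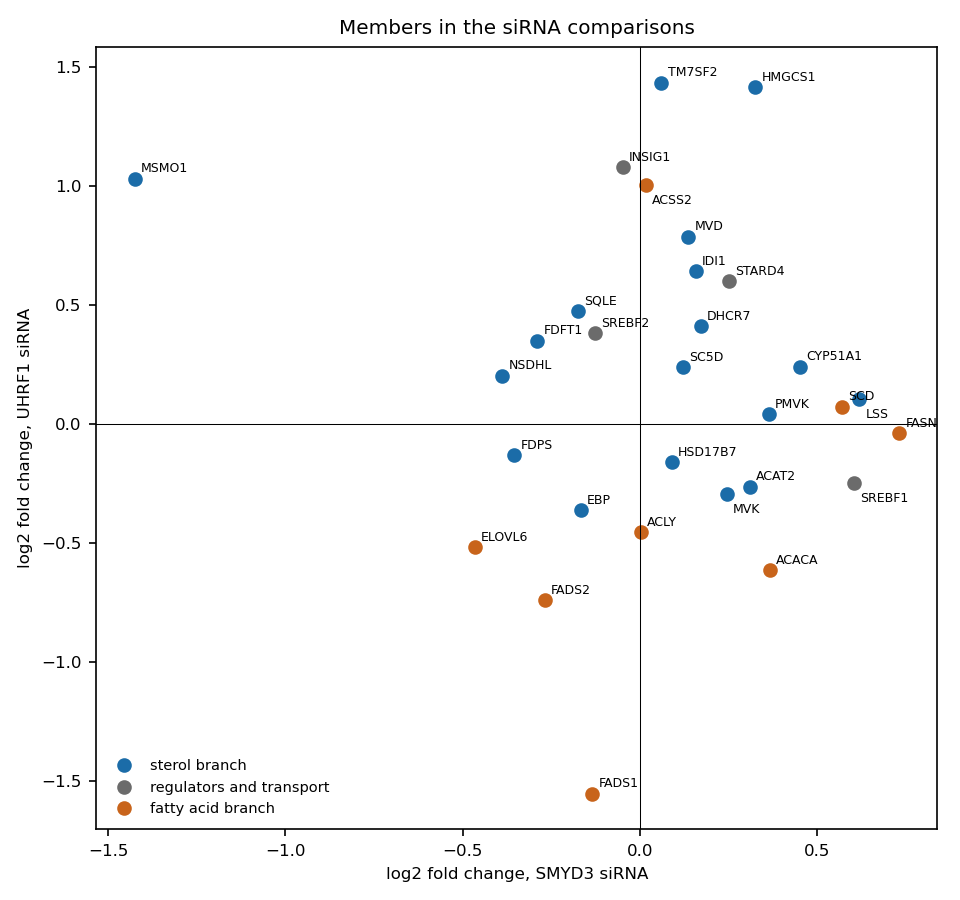
Log2 fold change of each member with the SMYD3 siRNA (x axis) and the UHRF1 siRNA (y axis), coloured by branch; each point is a gene, and the comparisons have separate controls. MSMO1 stands alone at the upper left (-1.43 and 1.03), TM7SF2 and HMGCS1 at the top, and FADS1 at the bottom (-1.55 on the y axis).

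Other genes of the same metabolism were counted from fixed lists. Beside them, 32% of all genes were called higher and 32.7% lower with the UHRF1 siRNA, and 42.1% and 42.5% in the knockout line. These shares were 24.2% and 24.4% with the SMYD3 siRNA and 11.3% and 10.3% with the ASO. For the knockout, upper quartile factors called 5386 of 17036 genes higher and 9117 lower. Among 14 further sterol pathway genes (receptors, SREBP processing, reductases and storage), 6 rose and 4 fell with the UHRF1 siRNA, 11 rose and 3 fell in the knockout line (8 and 4 with upper quartile factors), 5 rose and 2 fell with the SMYD3 siRNA, and 2 rose and 1 fell with the ASO (1 and 1 with upper quartile factors). SOAT1, which esterifies cholesterol for storage, rose by 1.81 ± 0.049 in the knockout line and fell by 1.01 ± 0.081 with the SMYD3 siRNA. ERG28, a scaffold of the C4 demethylation enzymes, fell by 1.56 ± 0.041 in the knockout line and rose by 0.56 ± 0.052 with the UHRF1 siRNA. Of 19 further genes of fatty acid synthesis and elongation, 5 rose and 9 fell with the UHRF1 siRNA, led by ACACB, the mitochondrial acetyl-CoA carboxylase (-1.74 ± 0.14), and HACD3, a dehydratase of elongation (-1.02 ± 0.054). The counts were 10 and 8 in the knockout line (8 and 9 with upper quartile factors), 8 and 1 with the SMYD3 siRNA (8 and 3), and 2 and 3 with the ASO (2 and 1 by DESeq2). GPAM, the first enzyme of glycerolipid synthesis, rose with the SMYD3 siRNA (0.78 ± 0.078) and fell with the ASO (-0.30 ± 0.070).

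Genes of the oxysterol and LXR pathway, through which cells answer excess sterol, were mostly higher with the SMYD3 siRNA (6 higher and 0 lower of 10, the 4 others not called). They were mostly lower in the knockout line (2 higher and 7 lower of 9 tested). Among all genes, 24.2% were called higher and 24.4% lower with the SMYD3 siRNA, and 42.1% and 42.5% in the knockout line. ABCA1, the cholesterol exporter, rose by 1.14 ± 0.090 with the SMYD3 siRNA and by 0.80 ± 0.054 with the UHRF1 siRNA, and fell by 1.64 ± 0.13 in the knockout line and by 0.32 ± 0.095 with the ASO. The list counted 6 higher and 3 lower with the UHRF1 siRNA and 1 and 2 with the ASO (1 and 0 by DESeq2). Of 17 genes of fatty acid oxidation, 8 rose and 6 fell with the UHRF1 siRNA, 6 and 5 in the knockout line (5 and 10 with upper quartile factors), 6 and 3 with the SMYD3 siRNA, and 1 and 1 with the ASO. CPT1A, which admits fatty acids to mitochondria, rose by 1.33 ± 0.041 in the knockout line and by 0.49 ± 0.074 with the SMYD3 siRNA and fell by 0.78 ± 0.056 with the UHRF1 siRNA. PPARA, a transcription factor of fatty acid oxidation, rose by 0.80 ± 0.10 with the SMYD3 siRNA and fell by 0.60 ± 0.065 with the ASO.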

How the data were processed

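RNA from HN-6 cultures was sequenced from poly(A) libraries made with a stranded kit, per the labels' protocols. The submitters' processing notes name hg38, bcl2fastq and Bowtie; neither their versions nor the counting tool or annotation is given in the sources used here. The siRNA and ASO tables hold raw read counts per gene as deposited by the authors. The knockout table holds a signal: counts per gene after a division by 1 number per library, which the authors applied before deposit, as the values themselves show; undoing it gave whole reads for 100% of values (tolerance 0.01), and edgeR on those reads called 7010 genes higher and 7470 lower. For the SMYD3 siRNA, 23588 lines without a symbol (0.849% to 0.917% of reads) were named through their Ensembl identifiers or left under them.

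Counts were tested with edgeR 4.0.16 (filterByExpr, TMM factors, robust quasi-likelihood F-test) and the knockout with limma 3.58.1 (trend, robust) on log2(value + 1), which understates changes of low genes, for genes at 10 or more in at least 3 libraries. Tests were two-sided, fitted on each whole table, adjusted by Benjamini-Hochberg over all genes and called under 0.05. Differences between changes were tested by an edgeR interaction or, with the knockout, by limma on log2(TMM CPM + 1), without mitochondrial genes. DESeq2 1.42.0, R 4.3.3 and Python 3.11.15 were also used. The tests were run on simulated reads with the same dispersion for every gene, so the outcome need not hold for the real libraries. Of simulated log2 changes of 0.58, 55% were recovered with the ASO, 87% in the knockout and with the SMYD3 siRNA, and 93% with the UHRF1 siRNA. RPKM used the gene lengths of the ASO table. Markers of squamous, leukocyte, fibroblast and endothelial, and adipocyte and hepatocyte cells (the last at most 1.84 CPM summed in every library) were counted. Alternatives were other tools, scalings, filters and pseudocounts, and each library left out. All members were named by role, and of other lists at most 3 called genes per comparison, those of largest absolute change; some genes that this rule picks are not reported here. Members and lists were chosen with earlier results of these data known. The study calls the replicates biological; their numbers were not taken as pairs.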

Additional observations from a re-analysis of the deposited data

Results flagged for a closer look

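The responses of many members differed between comparisons by a test of the difference itself. This held for 9 of 30 members between the SMYD3 siRNA and the ASO, where 40.1% of all genes passed. It held for 23 between the SMYD3 siRNA and the UHRF1 siRNA (54.1% of all genes). The counts were 23 between the knockout and the SMYD3 siRNA (76%) and 24 between the knockout and the ASO (76.5%). Members called in opposite directions are given below, each as the first change minus the second (log2 ± SE).

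Between the SMYD3 siRNA and the ASO, the difference was 0.87 ± 0.13 for LSS, 0.82 ± 0.12 for SCD, 1.05 ± 0.18 for FASN and 0.71 ± 0.11 for ACACA. Each rose with the siRNA and fell with the ASO.

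Between the SMYD3 siRNA and the UHRF1 siRNA, MSMO1 had the largest difference, -2.44 ± 0.10. FDFT1 (-0.62 ± 0.088) and NSDHL (-0.58 ± 0.091) also fell with the SMYD3 siRNA and rose with the UHRF1 siRNA. MVK (0.56 ± 0.11), ACAT2 (0.59 ± 0.098), SREBF1 (0.87 ± 0.12) and ACACA (1.00 ± 0.083) did the reverse.

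Between the knockout and the SMYD3 siRNA, 8 members fell in the knockout line and rose with the siRNA: SCD (-3.57 ± 0.086), SREBF1 (-2.53 ± 0.13), STARD4 (-1.62 ± 0.12), FASN (-1.45 ± 0.14), LSS (-1.30 ± 0.11), ACAT2 (-1.16 ± 0.095), ACACA (-0.99 ± 0.082) and MVK (-0.82 ± 0.11). ELOVL6 (0.72 ± 0.10), NSDHL (0.51 ± 0.082) and FDFT1 (0.47 ± 0.077) rose in the knockout line and fell with the siRNA, although the NSDHL and FDFT1 rises were lost with upper quartile factors.

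Between the knockout and the ASO, SREBF1 (-2.19 ± 0.079) and STARD4 (-1.75 ± 0.11) fell in the knockout line and rose with the ASO. FDFT1 (0.32 ± 0.061) and SREBF2 (0.41 ± 0.072) did the reverse, and these rises in the knockout line were not called with upper quartile factors.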

How the results depend on the processing

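The counts of members called kept within 1.5 times of the values above under the alternatives run (DESeq2, upper quartile factors, no filter on low values, a pseudocount of 5 and edgeR on recovered reads for the knockout, mitochondrial genes left out, and each library left out), with these exceptions. With upper quartile factors 5 members were higher in the knockout line, beside 5386 of 17036 genes. DESeq2 called 2 members higher with the ASO, beside 1308 of all genes. Leaving out 1 library gave 2 to 4 members higher and 5 to 9 lower with the ASO; the lone sample of a group is then assumed to vary like the other group. The lowest came without PBS replicate 1 (2 higher) and PBS replicate 2 (5 lower). The cause was not tested. For the knockout, leaving out mitochondrial genes kept the authors' scaling, so it could not move the members' changes. In the knockout line upper quartile factors turned DHCR7 to -0.044, SC5D to -0.020, NSDHL to -0.0014, EBP to -0.12, PMVK to -0.031 and SREBF2 to -0.016. Members that were not called and lay near 0 changed sign when a library was left out, with ranges of -0.12 to 0.027 for INSIG1, -0.019 to 0.065 for ACLY and -0.039 to 0.098 for ACSS2 with the SMYD3 siRNA; of -0.048 to 0.12 for DHCR7, -0.0064 to 0.027 for MSMO1, -0.020 to 0.077 for NSDHL, -0.51 to 0.16 for PMVK, -0.079 to 0.13 for INSIG1, -0.20 to 0.0062 for ACLY and -0.083 to 0.12 for FADS2 with the ASO; and of -0.080 to 0.15 for PMVK with the UHRF1 siRNA. Upper quartile factors also gave -0.033 for ACLY and -0.019 for ACSS2 with the SMYD3 siRNA, and -0.0072 for MSMO1 and -0.0067 for FADS2 with the ASO, and no filter gave -0.0085 for ACLY with the SMYD3 siRNA. The 26 differences between opposite responses stayed called under each alternative run for them. They had been picked because both changes were called in opposite directions and the difference passed in the same libraries. Deviations of libraries with the same replicate number correlated at 0.32 with the ASO, where 2 libraries a group force the same value on both pairs. The range was -0.06 to 0.23 in the knockout libraries, -0.10 to 0.35 with the SMYD3 siRNA and -0.07 to 0.06 with the UHRF1 siRNA. The labels name no shared day, and whether the numbers pair the samples was not settled. In the sample titles, the library numbers of control and treated libraries with the same replicate number are adjacent for the SMYD3 siRNA and the ASO. For the knockout and the UHRF1 siRNA they run group by group. The main fits did not take them as pairs. With the replicate number as a block, the ASO fit called 3477 of all genes higher and 3296 lower, beside 2068 and 1880 without it. Among the members, the block gave 12 higher and 17 lower in the knockout line and 10 and 6 with the SMYD3 siRNA. It gave 6 and 12 with the ASO and 15 and 10 with the UHRF1 siRNA. Of all genes the block called 7187 of 16948 higher and 7230 lower in the knockout line. With the SMYD3 siRNA it called 4735 of 18966 higher and 4763 lower, and with the UHRF1 siRNA 5793 of 18349 higher and 5914 lower. The differences numbered 11 between the SMYD3 siRNA and the ASO. Between the siRNAs they numbered 22, the sterol enzymes changing higher going from 4 to 3. There were 23 between the knockout and the SMYD3 siRNA and 24 between the knockout and the ASO. Of all genes, 3290 differed higher and 3928 lower between the SMYD3 siRNA and the ASO (16637 tested), and 4932 and 4442 between the siRNAs (17059). The counts were 5160 and 5418 between the knockout and the SMYD3 siRNA (13670), and 4855 and 6009 between the knockout and the ASO (13794). In the single comparisons the block ended no member's call. It added calls with the ASO for FDPS (adjusted p = 0.0124), ACSS2 (0.00481), TM7SF2 (0.0229), SC5D (0.0288), ACLY (0.0401) and ELOVL6 (0.0477), and with FDPS 1 member was then lower by all 3 ways of depleting SMYD3.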
